A study of Mus musculus with 2 samples.

Results

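The SOCS family genes Socs1, Socs2, Socs3 and Cish were read in CD4 T cells of visceral adipose tissue (VAT) and spleen. The members are the 4 genes whose symbol in the deposited feature list is one of these names, 4 of 55487 genes listed. All 4 were detected. The mice were C57BL/6 Foxp3.Cre-YFP animals, in which the Foxp3 gene drives Cre recombinase, so that the Bmal1 gene is removed in regulatory T cells (Tregs) of the Treg-bmal1KO mice and kept in those of the Treg-bmal1WT mice. Animals lived in reverse-light cycle rooms and were sampled at zeitgeber times 0 and 12 (hours after lights on). Per the labels, 34000 VAT and 32000 splenic CD4 T cells were sorted, marked with hashtag antibodies (an antibody with a DNA barcode that tags all cells of a sample), pooled and run on the 10x Genomics platform. Neither the age of the mice nor the number of animals behind each hashtag is given in the sources used here.

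The 2 tissues, 2 genotypes and 2 times make 8 combinations, whereas 6 hashtags were in use, and their names are numbers. No hashtag was therefore assigned to a tissue, genotype or time. A hashtag whose source is unknown is no replicate of a condition. No test between conditions was therefore possible, and each hashtag is given with its own value. Of 22960 barcodes, 22952 were also in the hashtag library. After filters on genes and mitochondrial reads, 15062 cells had a clear hashtag, with a median of 3185 unique molecular identifiers (UMIs, each marking 1 captured RNA molecule). The UMIs of the members in these cells numbered 4613 for Socs1, 5274 for Socs2, 2908 for Socs3 and 4823 for Cish.

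SOCS proteins are the feedback brake of cytokine signalling. When a cytokine binds its receptor, JAK kinases phosphorylate STAT transcription factors, and the STATs switch on SOCS genes whose products bind the receptor or the kinase through an SH2 domain and, through their SOCS box, recruit a ubiquitin ligase built on elongins B and C and cullin 5. Socs1 and Socs3 carry in addition a short region that blocks the JAK kinase itself. Cish (CIS) is a classical target of STAT5 downstream of interleukin-2 and competes for STAT5 docking sites, Socs2 is known above all for restraining growth hormone signalling, Socs1 restrains interferon-gamma and interleukin-2 signals, and Socs3 restrains receptors that contain gp130, such as that of interleukin-6. In Tregs, interleukin-2 acting on the high-affinity receptor subunit Il2ra is the main input to STAT5.

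The promoter letters are shown because Cish and Socs3 carry a STAT motif and Socs1 an interferon motif, the sequence through which interferon-regulated factors act on many genes. RefSeq (GRCm38.p6) promoter entries, 250 bases before to 50 bases after the start site, were found for 3 of the 4 members, Socs1, Socs3 and Cish. Positions count the start site as base 1 and the base before it as -1, and capitals mark the motifs. The STAT motif searched was TTCNNNGAA, which reads the same on both strands, and the interferon motif was GAAANNGAAA or, on the other strand, TTTCNNTTTC.
Cish, chr9:107296654-107296683, plus strand, bases -5 to 25: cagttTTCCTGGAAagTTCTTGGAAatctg
Socs1, chr16:10785537-10785636, minus strand, bases -100 to -1: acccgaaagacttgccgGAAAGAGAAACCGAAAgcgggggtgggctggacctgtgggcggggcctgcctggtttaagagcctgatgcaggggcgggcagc
Socs3, chr11:117969502-117969531, minus strand, bases -165 to -136: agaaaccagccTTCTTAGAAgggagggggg

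Cish held 2 STAT motifs, TTCCTGGAA at bases 1 to 9 and TTCTTGGAA at bases 12 to 20. At least 1 such motif was present in 8.30% of 32851 RefSeq promoter windows of the same length, and 2 or more in 0.457%. The Socs1 window held 2 overlapping interferon motifs, GAAAGAGAAA at bases -83 to -74 and GAAACCGAAA at bases -77 to -68. Of all windows, 3.44% held this motif 1 or more times and 0.225% held 2 or more. A single STAT motif, TTCTTAGAA at bases -154 to -146, was found for Socs3. The bases shown for Socs3 lie inside the gene as listed (117966079 to 117970336). The start site of its window is thus not the outermost one of the gene, whereas for Socs1 and Cish it is. A match of letters is a description of the window and shows no binding.

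T cells were sorted into gates by their UMIs of marker genes, none of them a member. A gate is a range of marker detection and not a cell type. The naive gate asked for genes of recirculating naive cells such as Ccr7 and Lef1. The Th1 gate asked for genes of interferon-gamma producing cells such as Tbx21, Cxcr3 and Ccl5. The ST2 Treg gate was named for Il1rl1, the interleukin-33 receptor ST2 that marks tissue Tregs, and took cells with a UMI of Il1rl1 or Areg and at least 2 of 6 Treg genes. The Foxp3 gate took the remaining cells with a UMI of Foxp3, the factor that defines Tregs. The Th1 gate held 4066 cells, the ST2 Treg gate 2723, the naive gate 1179 and the Foxp3 gate 286, while 4499 T cells met no gate. Some gates have many cells near their edge: 4173 cells were 1 gene short of the Th1 gate and 758 were 1 gene short of the ST2 Treg gate.

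The ST2 Treg gate held different cells in different hashtags. Its cells numbered 773, 648, 418 and 551 in hashtags 1 to 4, and 199 and 134 in hashtags 5 and 6. Il1rl1 was seen in 76.5% to 88.0% of its cells in hashtags 1 to 4 but in 42.2% and 44.0% in hashtags 5 and 6. Klrg1, a marker of mature tissue Tregs, was seen in 67.2% to 80.4% against 18.6% and 14.2%. Foxp3 itself was seen in 16.7% to 19.1% of these cells in hashtags 1 to 4 and in 8.04% and 10.4% in the other two, so the name of the gate is only weakly backed there. The naive gate was nearly empty in hashtags 1 to 4, with 37, 17, 32 and 30 cells, against 482 and 581 in hashtags 5 and 6. Ratios were taken only where a hashtag had 30 or more cells in each of the gates compared.

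The hashtags also differed in dissociation and immediate early genes. Cells can switch these on during tissue dissociation, and whether that is what raised them here was not tested. A list of 16 such genes, among them Fos, Jun and Atf3, took 15029, 19268, 12890 and 17807 CPM of the ST2 Treg gate in hashtags 1 to 4. CPM are the counts of a gene or list per 1000000 UMIs of the summed cells. In hashtags 5 and 6 it took 2582 and 1927 CPM. The list stood at 6543, 6909, 5189, 6716, 2117 and 2090 CPM in the Th1 gate of hashtags 1 to 6. Markers of B cells, macrophages, endothelial cells and stroma were summed over 16 genes. They stood at 55.2 to 78.6 CPM in the ST2 Treg gate and 64.8 to 92.0 CPM in the Th1 gate across hashtags. The naive gate had 48.5 to 123 CPM of them. Only cells with under 2 UMIs over these 16 genes were taken as T cells. The low values are therefore set by the gates and are no measure of purity.

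Cish stood highest in the ST2 Treg gate in hashtags 1 to 4, but not in hashtags 5 and 6. Its level there was 237, 224, 251 and 265 CPM in hashtags 1 to 4, and 36.6 and 39.3 CPM in hashtags 5 and 6. In the Th1 gate it was 81.0, 95.8, 99.5, 126, 31.0 and 31.9 CPM in hashtags 1 to 6. Within each of hashtags 1 to 4, the 95% Poisson interval of the ST2 Treg gate lay above that of the Th1 gate, while in hashtags 5 and 6 the intervals of the gates overlapped. All intervals cover counting error only, since the cells of a hashtag share a sample of unknown make-up. A sum over cells cannot tell more RNA per cell from more cells carrying the RNA.

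In the Foxp3 gate Cish gave 169, 199 and 177 CPM in hashtags 1 to 3, and 94.6 and 90.1 CPM in hashtags 5 and 6. In hashtags 5 and 6 these values were above those of the ST2 Treg gate of the same hashtags, with intervals of 61.8 to 139 against 24.5 to 52.6 CPM in hashtag 5, which were apart, and of 53.4 to 142 against 24.0 to 60.7 CPM in hashtag 6, which overlapped. Proliferating cells had 117, 129, 100 and 164 CPM in hashtags 1 to 4 and 33.2 CPM in hashtag 5. Levels were low in the naive gate, 21.2 and 24.2 CPM in hashtags 5 and 6, from 39 and 53 UMIs. In the other hashtags the naive gate rested on 1 or 2 UMIs.

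**Figure D1:**
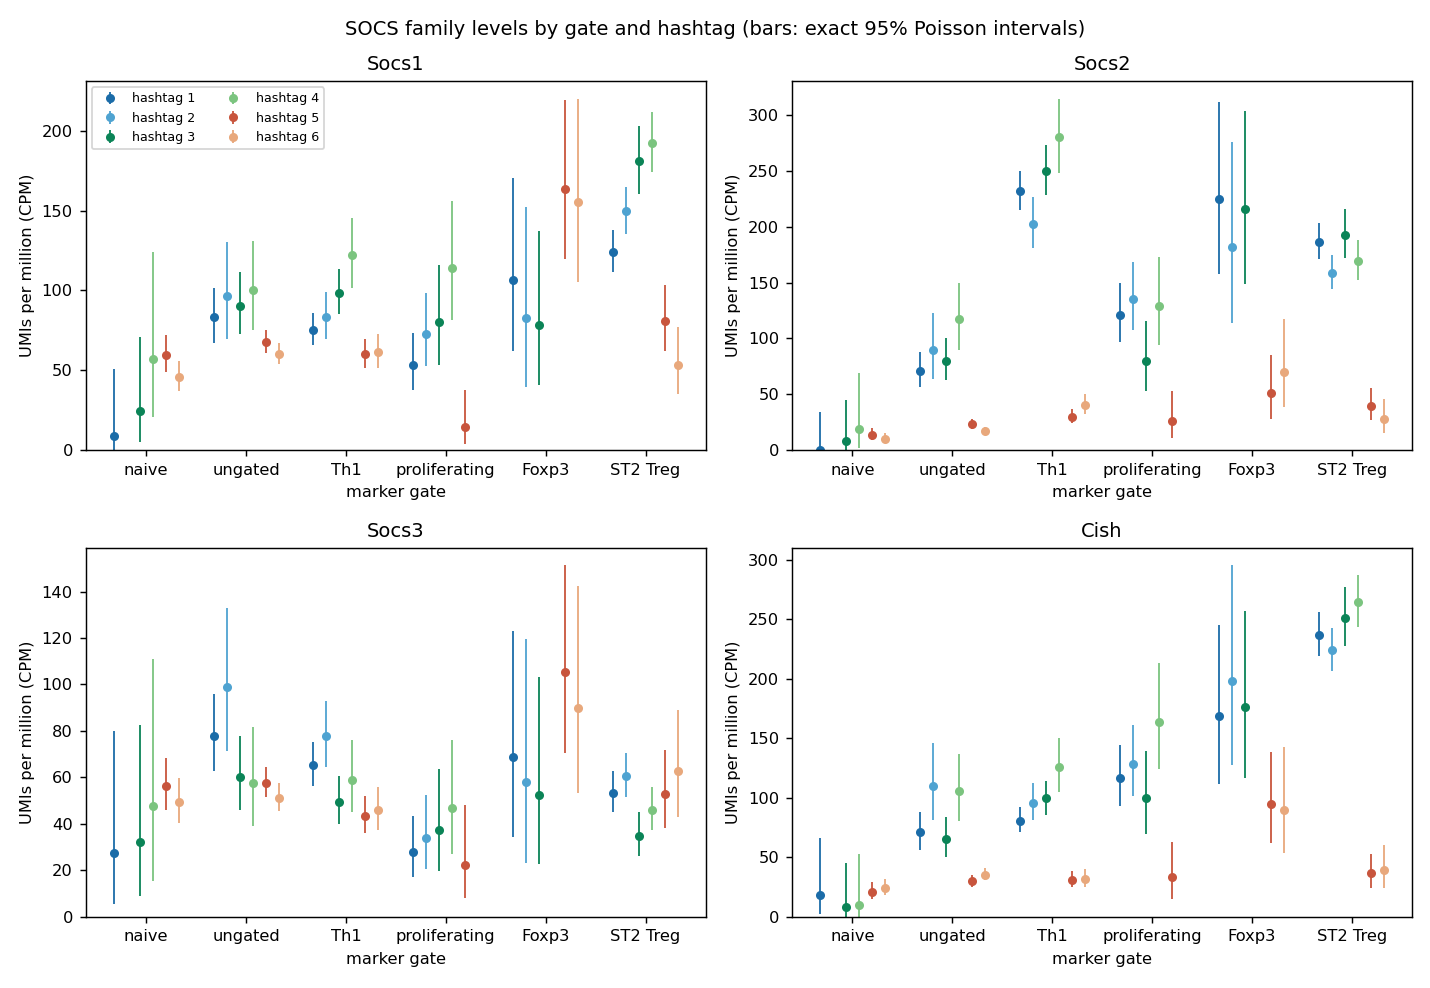
Level of each SOCS family gene (y axis, CPM) by marker gate (x axis) and hashtag (colours), for groups of at least 30 cells; points are summed counts and bars are exact 95% Poisson intervals. Cish and Socs2 in hashtags 1 to 4 stand above hashtags 5 and 6 in the Th1 and ST2 Treg gates, with Cish between 224 and 265 CPM in the ST2 Treg gate, while Socs3 stays between 34.7 and 77.7 CPM in both gates.

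Against the Th1 gate, the log2 ratio of Cish in the ST2 Treg gate had a median of 1.14 over 6 hashtags, with a range of 0.26 to 1.55. It was 1.55, 1.22, 1.34 and 1.07 in hashtags 1 to 4, and 0.26 and 0.32 in hashtags 5 and 6. The counting intervals of hashtags 5 and 6 included 0 (-0.42 to 0.86 and -0.50 to 1.03). Of 7595 genes at 10 CPM or more, 282 had a median at least 2-fold in either direction (3.71%), and 2.66% were at least 2-fold higher in the ST2 Treg gate. Cish was 1 of these and the only member past 2-fold.

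This ratio moved with the dissociation list. In cells with under 0.5% of their UMIs in that list, a selection added after the data were seen, the median log2 ratio of Cish was 0.68. The levels in such cells were 94.97, 138, 174 and 119 CPM in the ST2 Treg gate of hashtags 1 to 4, against 56.7, 82.6, 89.8 and 79.2 CPM in the Th1 gate. Few cells of the ST2 Treg gate are that low in the list, 83, 39, 71 and 52 in hashtags 1 to 4. Whether dissociation adds to Cish was not tested. In cells of the ST2 Treg gate that also had a Foxp3 UMI, the median log2 ratio to the Th1 gate was 1.35, over the 4 hashtags with enough such cells.

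Cells in which Il2ra was seen had more Cish. In the ST2 Treg gate the level of Cish with and without an Il2ra UMI was 295 and 177 CPM in hashtag 1, 233 and 207 CPM in hashtag 2, and 301 and 187 CPM in hashtag 3. In hashtag 4 it was 277 and 242 CPM, and in hashtag 5, 65.8 and 27.9 CPM. The direction was the same in all 5 hashtags in which both kinds of cell numbered 30 or more, and the intervals were apart in hashtags 1 and 3. The Th1 gate showed the same order in all 6 hashtags, with 124 and 76.9 CPM in hashtag 1 and 179 and 88.2 CPM in hashtag 2. The intervals there were apart in hashtag 2 only. The split was not particular to Cish. In the ST2 Treg gate Socs1 was 213 and 154 CPM in hashtag 4, with intervals apart. Socs2 was 209 and 163 CPM in hashtag 1 and 93.2 and 23.0 CPM in hashtag 5, also with intervals apart. Socs1 in hashtag 2 and Socs2 in hashtags 2 and 3 went the other way, with intervals that overlapped. Cells with an Il2ra UMI were also the deeper ones, with a median of 3486 UMIs against 2864 in the ST2 Treg gate of hashtag 1, and the part of depth was not tested. A split of the ST2 Treg gate by Il7r, the interleukin-7 receptor, gave 250 and 199 CPM of Cish in hashtag 1 and 251 and 252 CPM in hashtag 3. It gave 228 and 206 CPM in hashtag 2, 265 and 263 in hashtag 4, 40.8 and 29.9 in hashtag 5, and 41.9 and 33.2 in hashtag 6. The intervals overlapped in every hashtag. In the Th1 gate the order by Il7r was mixed, with 75.7 and 87.1 CPM in hashtag 1 and 129 and 122 CPM in hashtag 4.

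Socs2 did not follow the ST2 Treg gate. It was 232, 203, 250 and 280 CPM in the Th1 gate of hashtags 1 to 4, and 29.96 and 40.6 CPM in hashtags 5 and 6. In the ST2 Treg gate it was 187, 159, 193 and 170 CPM in hashtags 1 to 4, and 39.2 and 27.5 CPM in hashtags 5 and 6. Between these gates the median log2 ratio was -0.36, with a range of -0.72 to 0.40. Its counting interval lay below 0 in each of hashtags 1 to 4 and included 0 in hashtags 5 and 6. The Foxp3 gate had 225, 182 and 216 CPM of Socs2 in hashtags 1 to 3, and 50.9 and 70.1 CPM in hashtags 5 and 6.

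Naive cells had little Socs2, 13.6 and 10.1 CPM in hashtags 5 and 6. The median log2 ratio of the Th1 gate to the naive gate was 3.56, with 1.12 and 1.99 in hashtags 5 and 6, the 2 hashtags that held over 400 naive cells each. In hashtag 1 no Socs2 UMI was seen in naive cells, and against a floor of 3 UMIs (27.4 CPM) the Th1 gate was at least 8.47-fold higher. With that hashtag at its bound the median was 3.08. The ratio of the ST2 Treg gate to the naive gate was 2.84 (2.77 with the bound), and 1.52 and 1.47 in hashtags 5 and 6. Between the Th1 and naive gates 6.74% of 7284 genes were past 2-fold in either direction and 5.26% were higher in the Th1 gate. Between the ST2 Treg and naive gates 10.5% of 7352 genes were past 2-fold and 8.07% were higher in the ST2 Treg gate.

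Socs1 stood higher in the ST2 Treg gate than in the Th1 gate of hashtags 1 to 4, by less than 2-fold. Its level was 124, 149, 181, 192, 80.9 and 53.1 CPM in the ST2 Treg gate of hashtags 1 to 6, and 75.5, 83.5, 98.4, 122, 59.9 and 61.2 CPM in the Th1 gate. The median log2 ratio was 0.69, with a range of -0.18 to 0.88. Its intervals lay above 0 in hashtags 1 to 4 and included 0 in hashtags 5 and 6. In cells low in the dissociation list the median was 0.40, and the part of that list in the difference was not tested.

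In the Foxp3 gate Socs1 was not lower in hashtags 5 and 6. It stood at 106, 82.8 and 78.5 CPM in hashtags 1 to 3, and at 164 and 155 CPM in hashtags 5 and 6, and the intervals of all these hashtags overlapped. Socs1 in naive cells was 59.7 and 45.7 CPM in hashtags 5 and 6, against 59.9 and 61.2 CPM in the Th1 gate. The log2 ratio of the Th1 gate to the naive gate was 0.0039 in hashtag 5, with an interval of -0.35 to 0.36, and 0.42 in hashtag 6, with an interval of 0.036 to 0.81 that lay above 0. The log2 ratios of the Foxp3 gate to the naive gate were 1.47 and 1.78 in hashtags 5 and 6, with intervals of 0.92 to 1.97 and 1.13 to 2.36. The median over 4 hashtags was 1.66.

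Of the 4 members, Socs3 spread least between hashtags in the Th1 and the ST2 Treg gates. It was 53.4, 60.4, 34.7, 45.9, 53.1 and 62.9 CPM in the ST2 Treg gate of hashtags 1 to 6. The Th1 gate had 65.2, 77.7, 49.5, 59.0, 43.6 and 46.1 CPM. The median log2 ratio between these gates was -0.33, with a range of -0.51 to 0.46, and in 4 of 6 hashtags the interval included 0. Naive cells of hashtags 5 and 6 had 56.4 and 49.4 CPM, and the log2 ratios of the ST2 Treg gate to the naive gate were -0.08 and 0.37 there, with intervals that included 0. The median over 5 hashtags was -0.06. The Foxp3 gate stood at 106 and 90.1 CPM in these hashtags, with log2 ratios to the naive gate of 0.92 (0.26 to 1.51) and 0.90 (0.06 to 1.60).

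**Figure D2:**
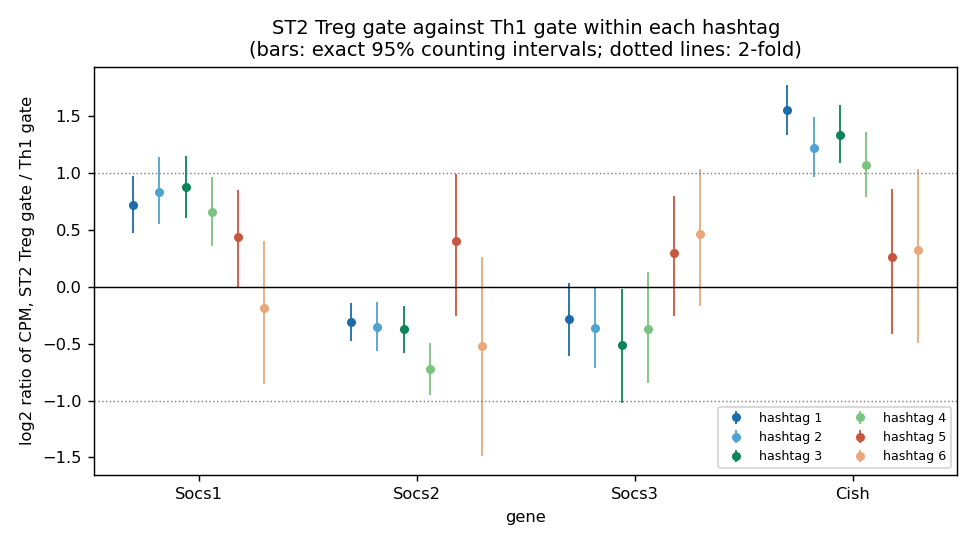
Log2 ratio of CPM in the ST2 Treg gate over the Th1 gate (y axis) for each SOCS family gene (x axis) within each of 6 hashtags (colours); bars are exact 95% counting intervals and dotted lines mark 2-fold. Cish lies between 1.07 and 1.55 in hashtags 1 to 4 and at 0.26 and 0.32 in hashtags 5 and 6, and Socs2 lies below 0 in hashtags 1 to 4.

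Against naive cells, 12.7% of 7330 genes were past 2-fold in the Foxp3 gate and 10.8% were higher there. The members among them were 3 of 4, Socs1, Socs2 and Cish, with medians of 1.66, 3.50 and 2.54. With hashtag 1 of Socs2 at its bound, the median of Socs2 was 2.93. The same 3 members were past 2-fold in the ST2 Treg gate, with Socs1 at 1.64 and Cish at 3.38. Past 2-fold in the Th1 gate were 2 members, Socs2 at 3.56 and Cish at 1.83, while Socs1 was at 0.99. The medians of the ST2 Treg and Th1 gates are over hashtags 1 and 3 to 6, and those of the Foxp3 gate over hashtags 1, 3, 5 and 6. Naive cells of hashtags 1, 3 and 4 gave 0 to 6 UMIs of each member. With only the hashtags of at least 50 cells on both sides, 5 and 6, the Foxp3 gate kept Socs1, Socs2 and Cish past 2-fold, at 1.62, 2.38 and 2.05. In the ST2 Treg gate Socs2 was then at 1.498, while Socs1 at 0.34 and Cish at 0.76 were no longer past 2-fold. In the Th1 gate Socs2 was at 1.56 and Cish, at 0.47, was no longer past 2-fold. All 3 comparisons share the naive cells.

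Between hashtags, Socs2 and Cish spread more than most genes in the Th1 and ST2 Treg gates. In the Th1 gate the log2 ratio of the highest to the lowest hashtag was 3.22 for Socs2 and 2.02 for Cish, against a median of 0.57 over 7560 genes. Only 31 genes (0.410%) spread as much as Socs2 and 148 (1.96%) as much as Cish. Socs1 spread by 1.03 and Socs3 by 0.83, both also above that median, with 14.5% and 24.7% of genes spreading at least as much. A spread of at least 2-fold was found in 15.6% of genes in this gate, among them 3 of the 4 members. Hashtag 4 was the highest for Socs1, Socs2 and Cish, and hashtag 5 the lowest for all 4 members.

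Among the 15 pairs of hashtags in the Th1 gate, the intervals were apart in 10 pairs for Socs2, 9 for Cish, 7 for Socs1 and 5 for Socs3. Pairs were not counted for other genes, and intervals narrow as the UMIs of a gene rise. These counts therefore cannot show whether the members stand out from other genes. The ST2 Treg gate spread by 2.83 for Cish, 2.76 for Socs2, 1.83 for Socs1 and 0.87 for Socs3, with a median of 0.72 over 7592 genes and 29.7% of genes past 2-fold. There the cells themselves differed between hashtags, as given above, and a Foxp3 UMI was seen in few cells of hashtags 5 and 6. Over hashtags 1 to 4 alone, a choice made after the data were seen, all cells of the gate spread by 0.24 for Cish, 0.28 for Socs2, 0.63 for Socs1 and 0.79 for Socs3. In cells of these hashtags with a Foxp3 UMI the spreads were 0.36, 0.69, 0.18 and 1.20. The Foxp3 gate spread by 1.13 for Cish, with 63.2% of genes spreading at least as much, and by 2.11 for Socs2, with 23.4%. Among genes within 2-fold of the level of the member, the share was 28.7% of 1483 for Cish and 3.65% of 1451 for Socs2. Of 10 pairs of hashtags in this gate, the intervals of Socs2 were apart in 5 and those of Cish in 0. Cish in the naive gate spread by 1.01, with 63.3% of genes at or above that. The naive gate had no pair apart for any member. Tissue, genotype and time cannot be told apart in any of these spreads.

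**Figure D3:**
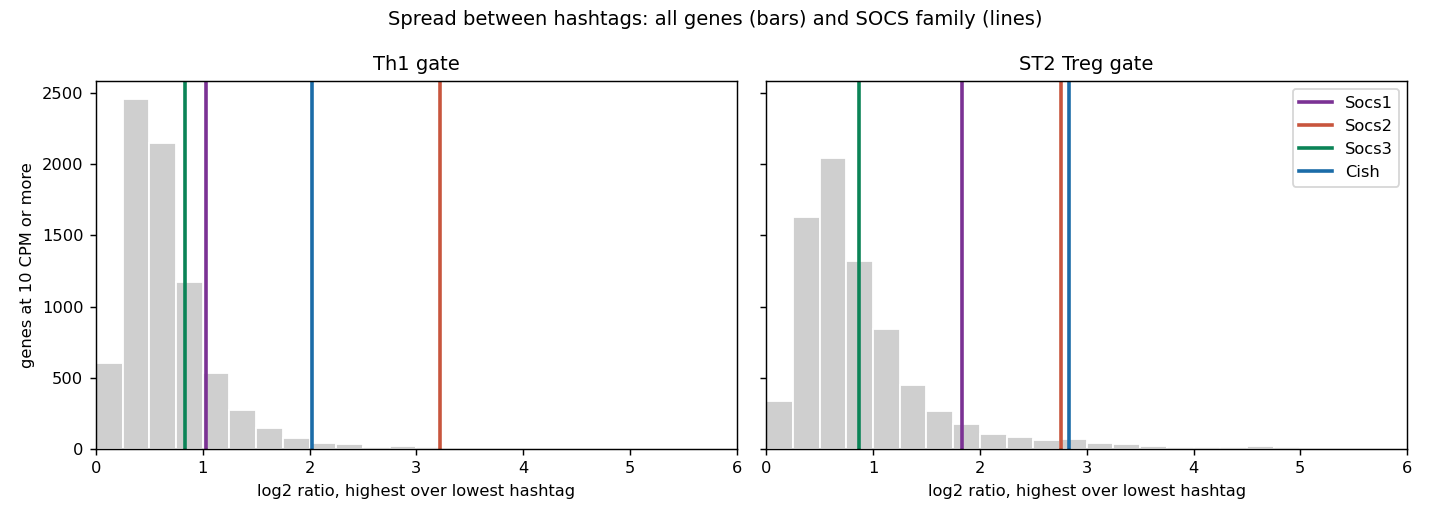
Number of genes at 10 CPM or more (y axis) by the log2 ratio of their highest to their lowest hashtag (x axis), in the Th1 gate and the ST2 Treg gate; lines mark the 4 SOCS family genes. Socs2 lies at 3.22 in the Th1 gate, where the median gene is at 0.57, and Socs3 lies at 0.83.

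Socs2 and Cish kept this order of hashtags 1 to 4 above 5 and 6 in cells low in the dissociation list, and Socs1 did not. In such cells of the Th1 gate Socs2 was 126, 162, 182 and 185 CPM in hashtags 1 to 4, and 29.1 and 39.9 CPM in hashtags 5 and 6. The spread was then 2.67 on the log2 scale. Cish in these cells was 56.7, 82.6, 89.8, 79.2, 29.1 and 31.1 CPM in hashtags 1 to 6. The levels in hashtags 1 to 4 were lower than in all cells of the gate, and still stood above hashtags 5 and 6 with intervals apart. Socs1 was 63.9, 55.7, 88.0, 91.4, 60.0 and 62.2 CPM in these cells, so that hashtag 2 was the lowest, and its spread was 0.71, below 2-fold. For Socs3 the spread was 0.62.

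**Figure D4:**
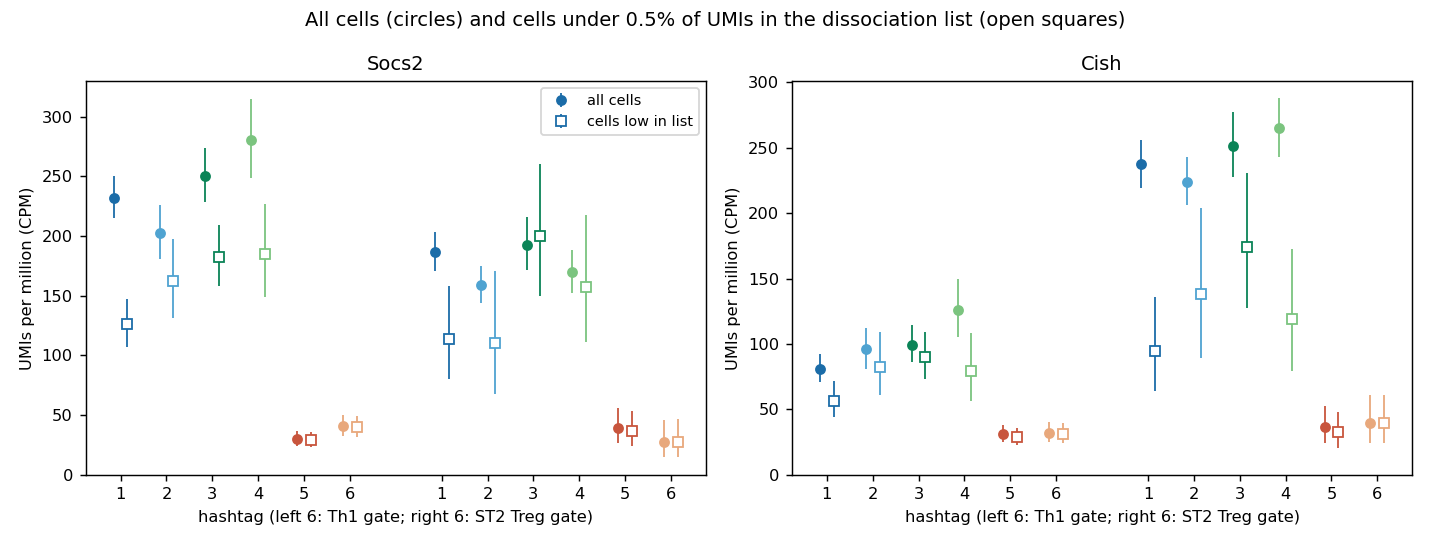
Level of Socs2 and Cish (y axis, CPM) in each hashtag (x axis) of the Th1 gate and the ST2 Treg gate, in all cells (circles) and in cells with under 0.5% of UMIs in the dissociation list (open squares); bars are exact 95% Poisson intervals. Cish in the ST2 Treg gate of hashtag 1 is 237 CPM in all cells and 94.97 CPM in cells low in the list, while Socs2 in the Th1 gate of hashtag 4 is 280 and 185 CPM.

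The share of cells with a UMI of each member was compared next. To remove differences in depth, each cell was thinned to 2000 UMIs and shallower cells were left out, 366 of 2723 in the ST2 Treg gate, 768 of 4066 in the Th1 gate and 55 of 1179 in the naive gate. A Cish UMI was then seen in 33.9% of cells of the ST2 Treg gate (exact binomial 95% interval 32.0 to 35.9), 12.1% of the Th1 gate and 4.18% of the naive gate. Without thinning the shares were 48.0%, 16.97% and 7.63%, at median depths of 3278, 2825 and 3628 UMIs. For Socs2 the thinned shares were 23.6%, 19.5% and 2.05%. With counts of all cells pooled over hashtags, its level was 158 CPM in the ST2 Treg gate and 155 CPM in the Th1 gate. These shares and pooled levels mix hashtags held in different numbers by the gates. Within hashtags 1 to 4 the Socs2 shares were 28.8%, 24.2%, 26.0% and 25.3% in the ST2 Treg gate and 28.2%, 23.7%, 32.1% and 30.3% in the Th1 gate. For Socs1 they were 24.4%, 12.5% and 9.43%, and for Socs3 7.98%, 10.1% and 9.16%. Free RNA in the droplets adds UMIs to all cells alike, and for Cish and Socs2 the naive gate bounds its share at the values just given. For Socs3, whose shares are alike in all 3 gates, such a background cannot be told apart from expression by these shares.

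At least 1 member was seen in 65.7% to 71.8% of thinned cells of the ST2 Treg gate in hashtags 1 to 4, and in 28.5% and 33.1% in hashtags 5 and 6. The Th1 gate gave 49.5% to 60.1% against 26.5% and 27.4%. Socs2 and Cish were found in the same cell of the Th1 gate 123 times, with 96.0 expected from their shares within hashtags (counting interval of the observed number 102 to 147). Socs1 and Cish were together in 74 cells, with 54.7 expected (58.1 to 92.9). Socs3 and Cish were together in 31 cells, with 41.3 expected (21.1 to 44.0). In the ST2 Treg gate Socs2 and Cish shared 224 cells, with 205 expected (196 to 255), and Socs3 and Cish shared 51, with 62.9 expected (38.0 to 67.1).

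Across 35 groups of a gate and a hashtag, Socs2 and Cish were the most alike pair of members, with a Pearson correlation of log2 CPM of 0.87. Socs1 correlated with each of Socs2 and Cish at 0.71, and Socs3 with Socs2 at 0.30 and with Cish at 0.26. The groups share hashtags, gates and a library, so these are descriptions. Of 7595 genes, Anxa1 (0.92) and Ahnak (0.92) were most like Cish, and Zbtb38 (0.92), Cd226 (0.92) and Ccr2 (0.91) most like Socs2. Gbp7 (0.82), an interferon-inducible GTPase, and Il2ra (0.81) were most like Socs1. The genes most like Socs3, Samhd1 (0.74) and Bcl11b (0.73), were less close.

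The JAK kinases and STATs upstream of the family stayed within 2-fold between gates. Few genes were past that limit at all, 3.71% to 12.7% of all genes in the 4 comparisons. None of 10 kinases and STATs, among them Jak1, Jak3, Stat5a and Stat5b, was past 2-fold in any of the 4 comparisons, and their median log2 ratio between the ST2 Treg and Th1 gates was -0.02, against -0.01 over all genes. None of the 4 partners of the SOCS box measured (Elob, Eloc, Cul5 and Rnf7) was past 2-fold either. Of 13 other feedback genes none was past 2-fold between these gates. Against the naive gate, 2 of 13 were higher in the Th1 gate, the phosphatases Dusp5 (1.89) and Ptpn11 (1.21), against 5.26% of all genes. In the ST2 Treg gate 1 of 13 was higher, against 8.07% of all genes, and in the Foxp3 gate 2 of 12, against 10.8%.

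Some cytokine receptors were past 2-fold. Of 19 measured, 4 were at least 2-fold higher in the ST2 Treg gate than in the Th1 gate and 1 was lower, against 2.66% of all genes higher and 3.71% in either direction, with a median of 0.09. Il2ra, the interleukin-2 receptor alpha chain, had a median log2 ratio of 2.70. Its level was 222, 306, 262, 388, 77.1 and 53.1 CPM in the ST2 Treg gate of hashtags 1 to 6, and 29.7 to 46.99 CPM in the Th1 gate. In the ST2 Treg gate Il2ra was thus high in the same hashtags as Cish. In the Th1 gate Il2ra showed no such order. It was 32.5, 36.2, 42.3, 46.99, 40.4 and 29.7 CPM there in hashtags 1 to 6. Nor did the Foxp3 gate show it, with 263, 99.3 and 144 CPM in hashtags 1 to 3 and 153 and 155 CPM in hashtags 5 and 6. The other receptors at least 2-fold higher in the ST2 Treg gate were Il9r (1.67), Ifngr2 (1.53) and Il10ra (1.08). Il2rb, the beta chain of the interleukin-2 receptor, was lower in the ST2 Treg gate in every hashtag, with a median of -0.77 (-1.07 to -0.63). In the Th1 gate against the naive gate, 5 of 16 receptors were at least 2-fold higher and 2 lower, against 5.26% of all genes higher and 6.74% in either direction. Among them were Il2rb, the shared beta chain of the interleukin-2 and interleukin-15 receptors, at 2.51, Ifngr2 at -2.40 and Il6ra at -1.50. Medians between these gates take in hashtags 1, 3 and 4, with 37, 32 and 30 naive cells. In hashtags 5 and 6 Il6ra was within 2-fold, at 78.4 and 76.7 CPM in the Th1 gate against 110 and 119 CPM. Il2rb was 202 and 222 CPM there against 46.1 and 38.8 CPM. Ifngr2 was low in the Th1 gate, with a mean of 6.76 CPM over hashtags.

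Of 15 other known targets of interleukin-2 and STAT5, 3 were at least 2-fold higher in the ST2 Treg gate than in the Th1 gate. The median was 0.46 and 1 target was lower, against 2.66% of all genes higher and 3.71% in either direction. The higher targets were Il2ra, which is also in the receptor list, the kinase Pim1 (1.52) and Tnfrsf4 (1.46), which encodes OX40. The lower one was Bcl2, at 98.8, 97.7, 175 and 137 CPM in the ST2 Treg gate of hashtags 1 to 4. The Th1 gate of these hashtags had 251, 293, 346 and 394 CPM of Bcl2. In hashtags 5 and 6 Bcl2 was higher in the ST2 Treg gate, at 262 and 281 CPM against 171 and 242 CPM. Pim1 stood at 1106, 1228, 1013 and 1185 CPM in the ST2 Treg gate of hashtags 1 to 4, and at 201 and 132 CPM in hashtags 5 and 6, so that hashtags 1 to 4 stood above 5 and 6, as they did for Cish. This order of Pim1 was also seen in the Th1 gate, with 372, 315, 348, 420, 128 and 128 CPM in hashtags 1 to 6. Naive cells had 329, 218 and 380 CPM of Pim1 in hashtags 1, 3 and 4, and 94.4 and 99.6 CPM in hashtags 5 and 6. Cish did not show the order in naive cells, where hashtags 1, 3 and 4 gave 1 or 2 UMIs. In the Foxp3 gate against the naive gate, 8 of 13 of these targets were higher and 1 lower, against 10.8% of all genes higher and 12.7% in either direction, with Tnfrsf9 at 3.63, Il2ra at 3.53 and Tnfrsf4 at 3.41.

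Of 6 measured STAT3 targets, 2 were higher in the ST2 Treg gate than in the Th1 gate, against 2.66% of all genes. These were Fos (1.72) and Junb (1.14), and both are also in the dissociation list. Of its 16 genes, 10 were at least 2-fold higher, against the same 2.66%, and none lower, with a median of 1.29. Its largest differences among genes with the same sign in every hashtag were those of Atf3 (3.14), Fos, Dusp1 (1.62) and Nr4a1 (1.62). Summed over its genes, the list had a log2 ratio between these gates of 1.20, 1.48, 1.31 and 1.41 in hashtags 1 to 4, and 0.29 and -0.12 in hashtags 5 and 6. Cish was above the list in hashtags 1, 3 and 6 and below it in hashtags 2, 4 and 5. The part of the list in the levels of the SOCS family was not tested beyond the cells low in it.

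**Figure D5:**
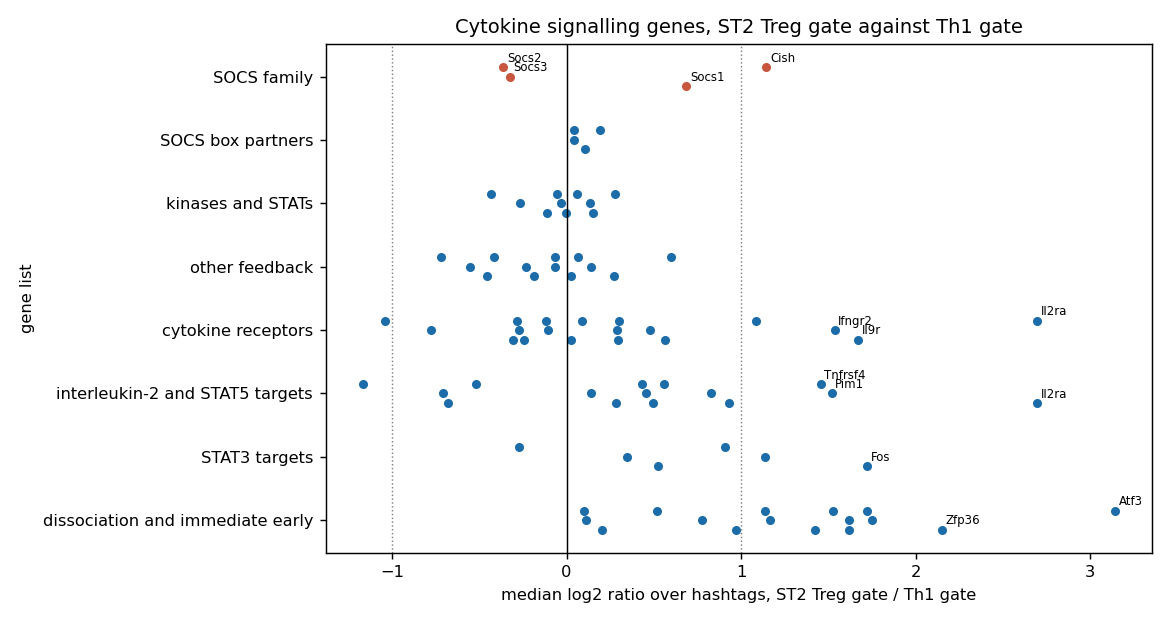
Median log2 ratio over 6 hashtags of the ST2 Treg gate over the Th1 gate (x axis) for the genes of 7 lists and the SOCS family (y axis); each point is a gene at 10 CPM or more and dotted lines mark 2-fold. Kinases and STATs lie within 2-fold, Il2ra lies at 2.70 and Cish at 1.14, and Atf3 of the dissociation list at 3.14.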

How the data were processed

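Per the labels' protocols, 1 library of gene expression and 1 of hashtags were made with the single cell 3' v3.1 chemistry. Both deposited matrices hold raw UMI counts per feature and barcode. Cell Ranger 6.0, Seurat 3 and mm10 are listed in the submitters' processing notes, while the matrix header gives cellranger 4.0.0; which version made the counts is not settled. Kept were 21236 cells that had 500 or more genes and mitochondrial UMIs below 10%, and a hashtag was called when it had at least 10 counts and 3 times the next one. Calls by HTODemux (Seurat 5.3.0, R 4.3.3) gave 13599 singlets in these cells, of which 12752 were in both calls, all with the same hashtag; 657 of the tagged cells were doublets by HTODemux. Doublets within a hashtag are not seen. Counts were summed per gate and hashtag (Python 3.11.15, scipy 1.17.1). Levels are CPM with exact Poisson 95% intervals, shares have exact Clopper-Pearson intervals, and ratios are log2 of CPM with a prior count of 0.5, taken within hashtags, as median and range. The ratio code was checked on simulated data.

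No test was run, since cells are not replicates. The members and lists were chosen with earlier results of these data known, and support nothing on their own. Of each list, up to 4 genes were named, those with the largest median among genes at 10 CPM or more, past 2-fold and of 1 sign in all hashtags; likeness names up to 5 genes. Alternatives covered hashtag calls, filters, gates, prior count, scaling (TMM from edgeR 4.0.16), thinning and each hashtag left out. Without strand in the sources used here, reads of an overlapping antisense gene cannot be told apart. Some genes and 1 gene list are not reported here.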

Additional observations from a re-analysis of the deposited data

Results flagged for a closer look

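Cells gated as B cells, macrophages or endothelial cells lie outside the comparisons of T cells, and all 4 members had UMIs in them above the limit that a count of 0 allows. The B gate (71 cells, median 7723 UMIs) had 38.5 CPM of Socs1, 59.1 of Socs2, 25.7 of Socs3 and 44.9 of Cish. The macrophage gate (209 cells, median 3720 UMIs) had 50.2 CPM of Socs1, 53.6 of Socs2, 38.3 of Socs3 and 52.7 of Cish. The endothelial gate (206 cells, median 5189 UMIs) had 29.8 CPM of Socs1, 97.6 of Socs2, 85.5 of Socs3 and 30.6 of Cish. Of the 106 Socs3 UMIs in the endothelial gate, 44 came from 1 cell of hashtag 4, and without it the level was 51.4 CPM. T cell receptor genes stood at 1991 CPM in the endothelial gate, against 4866 CPM in the ST2 Treg gate, so RNA of T cells was present in these barcodes, and its part in the values was not tested.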

How the results depend on the processing

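Of 523 recomputed values, 474 stayed within counting error (for counts of genes, within 1.5 times) and none of the called values changed sign. Counting error was here the interval of the hashtag or hashtags that carry the median, or of the highest over the lowest hashtag. Against the naive gate it can be wide, 1.84 to 6.75 for Cish in the ST2 Treg gate. Staying within it then says little. Between the ST2 Treg and Th1 gates, Cish was 1.65 with counts pooled over hashtags and 0.68 in cells low in the dissociation list, and Socs1 was 0.40 in those cells. Socs2 was -0.10 with the top hashtag called without a ratio, 0.030 pooled and -0.63 with a Foxp3 UMI. Against the naive gate, the strict cell filter (1000 genes, 5% mitochondrial), thinning, at least 50 cells and cells low in the list left the ST2 Treg gate at 0.35, 0.44, 0.34 and 0.37 for Socs1 and at 0.79, 0.67, 0.76 and 0.70 for Cish, and the Th1 gate at 1.58, 1.63, 1.56 and 1.60 for Socs2; Cish was 1.16 with stricter gates. Under these settings hashtags 1 to 4 mostly had too few naive cells. Counts of genes past 2-fold were 2199, 10008, 3504 and 10006 without the filter on low values, in the order ST2 Treg against Th1, ST2 Treg, Foxp3 and Th1 against naive. They were 526 and 1917 with a Foxp3 UMI (first and second), 161, 322 and 271 in cells low in the list (first, second and last), 311 and 265 with the strict filter and 333 and 278 with at least 50 cells (second and last). Leaving out each hashtag gave 932 to 1438 genes for Foxp3 against naive (1438 without hashtag 5) and 455 to 770 for Th1 against naive (757 without hashtag 5, 770 without hashtag 6).

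The spread between hashtags in the Th1 gate was 2.40 for Socs2 and 1.51 for Cish with no ratio in the hashtag call, and for Socs2 2.80 with stricter gates, 2.67 in cells low in the list and 2.78 to 3.22 with each hashtag left out. In the ST2 Treg gate it was 1.22, 2.03 and 1.99 for Socs1, Socs2 and Cish with no ratio, 0.18, 0.69 and 0.36 with a Foxp3 UMI, and for Socs1 1.15 with stricter gates and 1.24 to 1.83 with each hashtag left out; Socs3 was 1.67 in cells low in the list. These spreads and the settings of a Foxp3 UMI, an Il1rl1 UMI and the dissociation list were chosen after seeing the data. The cause of these changes was not tested. No paired analysis was possible because the series has 1 expression library and its hashtags carry no replicate number. The small number of cells, 17 to 37, limits the naive gate of hashtags 1 to 4, which gave 0 to 6 UMIs of a member.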

Other observations

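T cells of no gate also held the family. In these 4499 cells Socs2 was 71.0, 89.6, 80.1 and 117 CPM in hashtags 1 to 4, and 23.1 and 16.7 CPM in hashtags 5 and 6. Cish was 71.0, 110, 65.5, 106, 29.8 and 35.5 CPM in hashtags 1 to 6, and Socs3 was 78.0, 98.8, 60.3, 57.5, 57.6 and 51.1 CPM. The median depth was 2051, 2042, 2081 and 2162 UMIs in hashtags 1 to 4 and 3362 and 3510 UMIs in hashtags 5 and 6. Proliferating cells of hashtags 1 and 2 had 28.1 and 33.9 CPM of Socs3, against 65.2 and 77.7 CPM in the Th1 gate of the same hashtags, with intervals apart.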
